A study of Rattus norvegicus with 8 samples.

Results

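The genes of lipid droplet coats and lipases Hilpda, Plin2, Plin3, Dgat1, Dgat2, Pnpla2, Abhd5, Lipe, Mgll and Lpin1 were followed in cultured oligodendrocyte precursor cells (OPCs), the dividing cells from which myelin-forming oligodendrocytes arise. These 10 genes were taken by gene symbol from a table of 32662 genes, and each of the 10 stood on 1 row. The values were FPKM, the sequenced fragments of a gene scaled by its length and by the library's total. The 4 Control libraries came from cells under normal conditions and the 4 OGD libraries from cells under oxygen glucose deprivation (OGD) for 6 h, which stands in culture for the lack of blood flow in a stroke. All cells came from the cerebral cortex of Sprague Dawley rats 1 to 2 days old, and were collected as the non-adherent cells of mixed glial cultures grown in 20% serum. Both groups were then cultured for 4 to 5 days in Neurobasal medium with 2% B27, 2 mM glutamine and 1% penicillin/streptomycin, to which PDGF and FGF were added at 10 ng/ml each. The labels do not say whether the 4 libraries of a group came from separate cultures, and p-values therefore cover only the spread among these libraries, which may be technical.

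A lipid droplet is a core of triglycerides and sterol esters under a single layer of phospholipid, to which coat proteins such as the perilipins bind. Triglyceride is built in the endoplasmic reticulum by acylation of glycerol phosphate, removal of the phosphate by lipins and a last acylation by the DGAT enzymes. It is broken down again by 3 lipases in turn, ATGL (gene Pnpla2), hormone-sensitive lipase (Lipe) and monoacylglycerol lipase (Mgll), with ABHD5 as the activator of ATGL and HILPDA as an inhibitor of it. Cells short of oxygen commonly store fatty acids in droplets, and HILPDA takes its name from its induction by hypoxia.

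In OGD the lipase gene Lipe rose 1.82-fold in mean FPKM, and Lpin1, Abhd5 and Dgat1 rose 1.42-, 1.33- and 1.24-fold, while Mgll fell to 0.529 of its Control level. The coat gene Plin2, Dgat2 and the hypoxia gene Hilpda did not pass the test. Of the 10 genes, 8 reached the filter of at least 1 FPKM in at least 4 libraries and were tested. Of these, 4 (Lipe, Lpin1, Abhd5 and Dgat1) rose and 1 (Mgll) fell, by limma on log2(FPKM + 1) at a threshold of 0.05 on p-values adjusted by Benjamini-Hochberg over all 11149 tested genes. Among all tested genes 22.7% rose and 26.8% fell, so that 49.5% changed. The counts of every list below stand beside these shares. The median log2 change was 0.22 over the 8 genes and -0.04 over all tested genes. Lipe was past the threshold in each of its 15 alternatives, but the number that rose was 1 without Control 4 or OGD 2, 2 without Control 1 or OGD 1, 3 or 4, and 3 without Control 2 or 3. Every OGD library lay above every Control library for 3 of the 8 genes (20.7% of all tested genes) and below for 1 (24.1%), so the groups did not overlap for 4 of 8, against 44.7% of all tested genes.

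**Figure D1:**
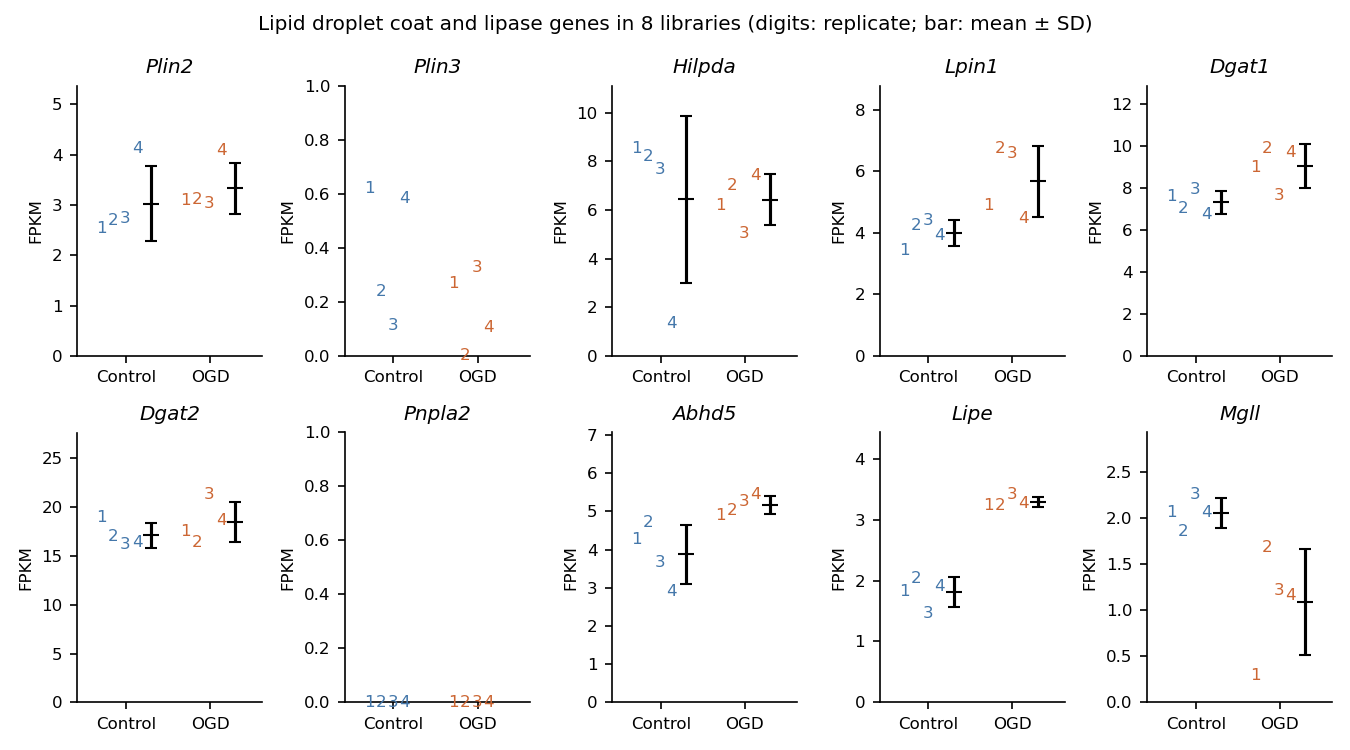
FPKM of the 10 genes in each library, with Control in blue, OGD in orange, digits giving the replicate and black bars the mean ± SD (n = 4), left out where a library is listed at 0. Every OGD library lies above every Control library for Lipe, Abhd5 and Lpin1 and below for Mgll, Control 4 stands apart at 1.33 FPKM for Hilpda, and Pnpla2 is at 0 throughout.

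In the Control cells the gene with the highest level per length was Dgat2 (17.1 ± 1.26 FPKM, SD, n = 4), whose range did not meet that of the next gene. Dgat1, Hilpda, Lpin1, Abhd5 and Plin2 followed, with mean levels of 7.31, 6.44, 3.99, 3.88 and 3.02 FPKM, and each neighbouring pair in this order overlapped between libraries. Hilpda met Lpin1 only through Control 4, at 1.33 FPKM. By median Hilpda (7.94 FPKM) stood above Dgat1 (7.30 FPKM). Mgll (2.06 ± 0.163 FPKM) and Lipe (1.81 ± 0.248 FPKM) also overlapped each other. Plin3 was below 1 FPKM in all libraries. In OGD the means of Lipe and Mgll moved apart to 3.28 ± 0.0838 and 1.09 ± 0.578 FPKM, and their libraries no longer overlapped.

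Among the coat genes, Plin2 (ENSRNOG00000007060) encodes perilipin 2, the droplet coat protein of most cells outside fat tissue. Plin2 was at 2.53, 2.70, 2.74 and 4.12 FPKM in Control 1 to 4 and at 3.09, 3.11, 3.03 and 4.09 FPKM in OGD 1 to 4. Replicate 4 was the highest library of each group, and the groups overlapped through Control 4 alone, since OGD 1 to 4 all lay above Control 1 to 3. Its log2 change was 0.12, with a 95% interval of -0.19 to 0.43 (limma, adjusted p = 0.520). Without Control 4 the change was 0.24 (limma, adjusted p = 0.152). Multiplied by the relative depth of its library, each Plin2 value lay within 0.05 of a whole number of equal steps. These steps are 30, 33, 36 and 52 in Control 1 to 4 and 34, 30, 41 and 57 in OGD 1 to 4. If 1 step is 1 fragment, a level of Plin2 rests on 30 to 57 fragments.

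Within each group, the library in which Plin2 was highest was also that with the highest microglial markers. The summed level of 12 such genes was 421.6 FPKM in Control 4 against 273.9 to 297.9 in Control 1 to 3, and 184.2 FPKM in OGD 4 against 110.7 to 129.6 in OGD 1 to 3. Between the groups this did not hold. The mean sum was 317.0 FPKM in Control and 135.5 in OGD, while mean Plin2 was 3.02 and 3.33 FPKM. Of these 12 genes 10 fell in OGD and 0 rose (8 of the 10 with at least 1 FPKM in all OGD libraries fell), with Fcer1g, an Fc receptor chain, at 60.5 ± 10.2 FPKM in Control and 32.0 ± 7.45 in OGD. In such bulk cultures fewer cells of a type and less RNA per cell cannot be told apart. The part of microglial RNA in the Plin2 values was not tested. Of 8 adipocyte markers, whose summed level was 5.15 to 7.31 FPKM in Control and 3.08 to 7.64 in OGD, Adipoq, Lep, Retn, Plin1 and Cidec were listed at 0 in all libraries, which may be a failed estimate, and nearly all of the sum was Lpl and Cfd.

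Plin3 (ENSRNOG00000048834), a perilipin that shuttles between cytosol and new droplets, was at 0.620, 0.240, 0.112 and 0.582 FPKM in Control 1 to 4 and at 0.267, 0, 0.326 and 0.105 FPKM in OGD 1 to 4. The same step reading gives 5, 2, 1 and 5 fragments in Control and 2, 0, 3 and 1 in OGD, if its smallest step is 1 fragment. With so few fragments and overlapping groups a difference was not detectable at this depth. Fitted without the filter, its log2 change was -0.23 ± 0.14 (SE, limma, adjusted p = 0.259). Plin2 held 80.3% to 96.1% of the FPKM summed over Plin2 and Plin3 in Control and 90.3% to 100% in OGD. The log2(FPKM + 1) of Plin2 minus that of Plin3 was 1.54 ± 0.284 in Control and 1.88 ± 0.283 in OGD (mean ± SD over 4 libraries; p = 0.200 by exact permutation, two-sided, and 0.314 after adjustment for 2 ratios).

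The list of other genes of droplet coats and droplet assembly had 18 entries. Of these 9 were tested, 1 rose, 3 fell and 5 did not pass, with a median log2 change of -0.14. The perilipins Plin1, Plin4 and Plin5, together with Cidec, Fitm1 and Mettl7b, were listed at 0 in all libraries, which may be a failed estimate and says nothing about their level. Bscl2, which encodes seipin, the protein that shapes nascent droplets at the endoplasmic reticulum, fell from 6.43 ± 0.990 to 3.67 ± 0.571 FPKM (limma, adjusted p = 0.00155). Ldah, a droplet-associated hydrolase, fell from 17.4 ± 0.526 to 11.4 ± 0.754 FPKM (limma, adjusted p = 9.62e-05), and the droplet GTPase Rab18 fell by 0.34 on the log2 scale. Aup1, a protein of droplets and the endoplasmic reticulum with the highest level in the list, was at 38.2 ± 1.82 and 37.0 ± 1.68 FPKM. The rising member was G0s2, described with the lipases.

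Among the enzymes of triglyceride synthesis, Lpin1 (ENSRNOG00000004377) encodes lipin 1, the phosphatase that turns phosphatidic acid into diacylglycerol and also acts as a transcriptional coregulator. Lpin1 was at 3.41, 4.24, 4.38 and 3.92 FPKM in Control 1 to 4 and at 4.87, 6.74, 6.58 and 4.46 FPKM in OGD 1 to 4. All OGD libraries lay above all Control libraries, with OGD 4 closest to them and OGD 2 and 3 highest. Lpin1 rose on the log2 scale by 0.41 ± 0.13 (SE; limma, adjusted p = 0.0262), and 14.9% of the tested genes had a larger one. It did not pass without Control 1 or 4 or without OGD 2 or 3 (limma, adjusted p = 0.0683, 0.0554, 0.0719 and 0.0763), nor without a filter (adjusted p = 0.0552). Over 15 alternatives the adjusted p of Lpin1 ran from 0.00854 to 0.0763, and 10 passed. Lpin2, the gene of a second lipin, fell from 13.3 ± 1.65 to 8.86 ± 1.12 FPKM (limma, adjusted p = 0.00228).

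The DGAT enzymes join the last fatty acid to diacylglycerol, DGAT1 in the endoplasmic reticulum and DGAT2 both there and at droplets. Dgat1 (ENSRNOG00000028711) was at 7.60, 7.00, 7.91 and 6.71 FPKM in Control 1 to 4 and at 8.97, 9.87, 7.61 and 9.68 FPKM in OGD 1 to 4. OGD 3 lay within the Control range and the other 3 OGD libraries above it. Dgat1 rose on the log2 scale by 0.27 ± 0.097 (SE; limma, adjusted p = 0.0392). This call was lost without Control 1, 2 or 4 (limma, adjusted p = 0.0515, 0.0854 and 0.104) and without OGD 1, 2 or 4 (adjusted p = 0.0725, 0.0992 and 0.0828). Median centring, no filter and a replicate block lost it too (limma, adjusted p = 0.0627, 0.0606 and 0.0717). Over 16 alternatives the adjusted p of Dgat1 ran from 0.0136 to 0.104, and 7 passed.

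Dgat2 (ENSRNOG00000016573) was at 18.9, 17.0, 16.1 and 16.4 FPKM in Control 1 to 4 and at 17.5, 16.4, 21.3 and 18.6 FPKM in OGD 1 to 4. The groups overlapped, and OGD 3, the lowest OGD library for Dgat1, was the highest for Dgat2. Its log2 change was 0.10, with a 95% interval of -0.10 to 0.30 (limma, adjusted p = 0.371). Dgat2 held 67.1% to 71.3% of the FPKM summed over the 2 DGAT genes in Control and 62.5% to 73.7% in OGD. On the log2(FPKM + 1) scale Dgat2 minus Dgat1 was 1.12 ± 0.122 in Control and 0.96 ± 0.294 in OGD (mean ± SD over 4 libraries; p = 0.314 by exact permutation, two-sided, and 0.314 after adjustment for 2 ratios). The smallest p that 4 against 4 allows is 0.0286. After adjustment for 2 ratios, a single ratio could therefore not pass the threshold on its own. The test cannot decide whether the balance of the DGAT genes differed. The OGD range of the Dgat2 share enclosed the Control range.

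The steps before these enzymes went in both directions, as did all tested genes, of which 22.7% rose and 26.8% fell. Of 21 further glycerolipid synthesis genes 14 were tested, 3 rose, 6 fell and 5 did not pass, with a median log2 change of -0.10. Acsl3, an acyl-CoA synthetase of the endoplasmic reticulum and of nascent droplets, rose from 56.1 ± 3.09 to 129.9 ± 4.74 FPKM (log2 change 1.20 ± 0.061, SE; limma, adjusted p = 2.20e-07). The other rising genes were Ctdnep1 (0.31), whose phosphatase acts on lipins, and Agpat4 (0.31). Gpam, the mitochondrial acyltransferase that starts glycerolipid synthesis, fell from 18.7 ± 2.51 to 12.5 ± 0.704 FPKM (limma, adjusted p = 0.00110). Agpat1 (-0.51), Agpat3 (-0.37), Gpat4 (-0.35) and Acsl1 (-0.32) fell as well on the log2 scale.

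**Figure D2:**
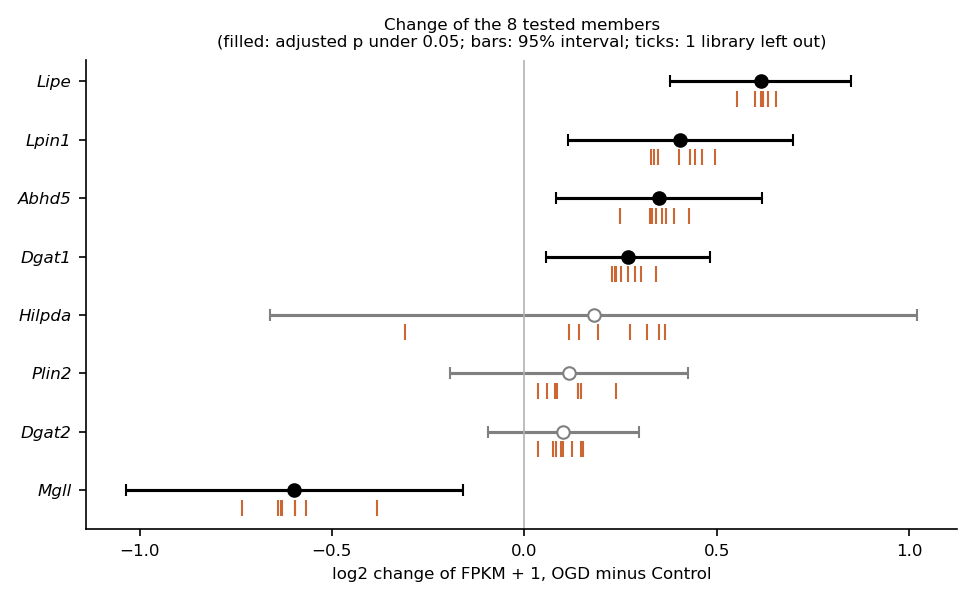
Log2 change of FPKM + 1 (horizontal axis, OGD minus Control) for the 8 tested genes, with 95% intervals; filled points passed the test and orange ticks are the changes with 1 library left out. Lipe lies highest at 0.61 and Mgll lowest at -0.60, and the Hilpda interval runs from -0.66 to 1.02, with 1 tick at -0.31.

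In the lipolytic cascade Pnpla2 (ENSRNOG00000018736), the gene of the triglyceride lipase ATGL, was listed at 0 in all 8 libraries. Hprt1, Rps6 and Ndufa1, genes that most cells use, were listed at 0 in all 8 libraries too, so a listed 0 may be a failed estimate and says nothing about the level of Pnpla2. The 2 planned ratios of Hilpda and of Abhd5 to Pnpla2 could therefore not be formed.

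Abhd5 (ENSRNOG00000000221) encodes the ATGL activator also called CGI-58, which perilipins hold at the droplet surface. Abhd5 was at 4.25, 4.70, 3.65 and 2.91 FPKM in Control 1 to 4 and at 4.90, 5.03, 5.25 and 5.43 FPKM in OGD 1 to 4. All OGD libraries lay above all Control libraries, and the OGD values were close together (5.15 ± 0.236 FPKM, SD, n = 4) where the Control values spread more widely (3.88 ± 0.774 FPKM). Abhd5 rose on the log2 scale by 0.35 ± 0.12 (SE; limma, adjusted p = 0.0337). It did not pass without Control 3 or 4 (limma, adjusted p = 0.0787 and 0.0926) or without OGD 1, 2, 3 or 4 (adjusted p = 0.0512, 0.0533, 0.0694 and 0.0649). Median centring, no filter and a replicate block also lost the call of Abhd5 (limma, adjusted p = 0.0521, 0.0643 and 0.0507). Over 15 alternatives its adjusted p ran from 0.0166 to 0.0926, and 6 passed.

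Hilpda (ENSRNOG00000054999) encodes a small droplet protein that inhibits ATGL. Its promoter is shown because its known induction by hypoxia acts through hypoxia response elements, whose core is ACGTG or GCGTG, while its level here did not pass the test. Plin2 and Mgll are shown as the other members found with such a core. The stretches are the 150, 100 and 150 bases before the annotated starts of Hilpda, Plin2 (the upstream site of 2) and Mgll, from RefSeq on build GRCr8, at chr4:58836313-58836462 on the plus strand, chr5:106229019-106229118 on the minus strand and chr4:122749286-122749435 on the plus strand. They are written 5′ to 3′ along the gene, with capitals on each core found on either strand.
Hilpda: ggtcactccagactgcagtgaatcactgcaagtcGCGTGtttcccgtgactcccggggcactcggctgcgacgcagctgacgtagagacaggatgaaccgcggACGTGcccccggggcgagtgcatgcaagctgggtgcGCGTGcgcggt
Plin2: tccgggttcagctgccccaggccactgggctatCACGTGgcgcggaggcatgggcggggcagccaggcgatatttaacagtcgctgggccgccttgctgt
Mgll: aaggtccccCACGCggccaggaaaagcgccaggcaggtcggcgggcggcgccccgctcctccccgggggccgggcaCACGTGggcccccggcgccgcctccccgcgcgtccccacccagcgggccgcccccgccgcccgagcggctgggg

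Of the 10 genes 7 matched a promoter entry by symbol, and the 250 bases before each start were searched on both strands. Dgat1, Dgat2 and Lipe had no entry and were not searched. ACGTG stood in 3 of the 7 genes (Hilpda, Plin2 and Mgll) and GCGTG in 2 (Hilpda and Mgll), while 16.6% and 25.9% of all 33469 RefSeq promoters held them and 36.7% held either core. In Plin2 and Mgll the ACGTG cores of both strands overlap in the palindrome CACGTG, also the core of E-boxes, which 5.59% of all promoters held. No core stood in this window of Plin3, Pnpla2, Abhd5 or Lpin1, or before the second start of Plin2. Of the 14 listed targets of the hypoxia-inducible factors (HIF) 13 had an entry, and 9 of them held either core. A match is a description of these letters and not a site in use.

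**Figure D3:**
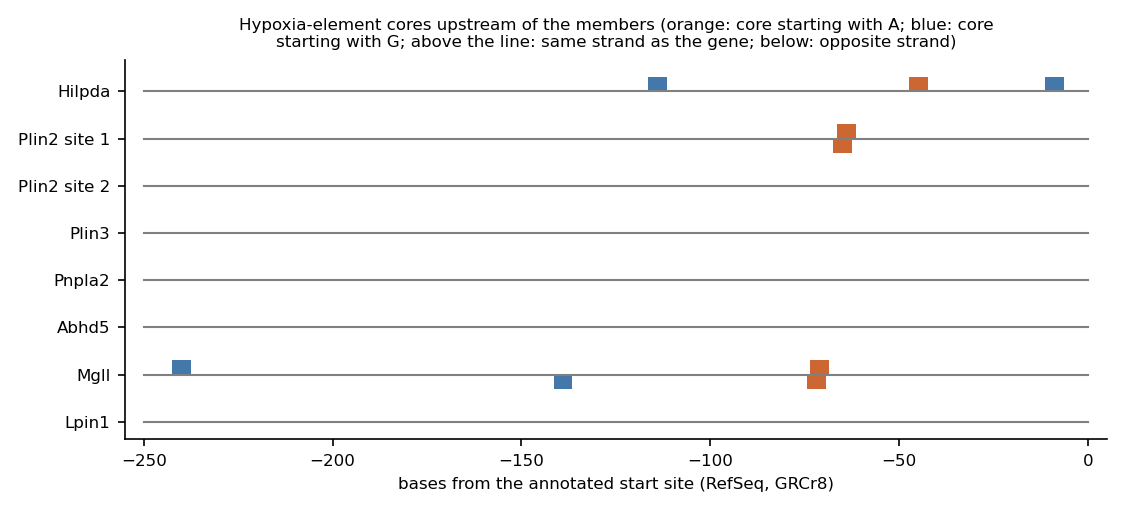
Positions of ACGTG cores (orange) and GCGTG cores (blue) in the 250 bases before the RefSeq start sites of 7 of the genes; boxes above a line lie on the gene's own strand and boxes below it on the opposite strand. Hilpda has 3 cores, the nearest 7 to 11 bases before its start, while Plin3, Pnpla2, Abhd5, Lpin1 and the second Plin2 site have 0.

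Hilpda was at 8.54, 8.21, 7.66 and 1.33 FPKM in Control 1 to 4 and at 6.19, 6.99, 5.05 and 7.43 FPKM in OGD 1 to 4. Control 4 stood far below the other 7 libraries, and all 4 OGD libraries lay between it and the other 3 Control libraries. The mean levels were 6.44 ± 3.42 and 6.41 ± 1.05 FPKM (mean ± SD, n = 4). Hilpda changed by 0.18 on the log2 scale, with a 95% interval of -0.66 to 1.02 (limma, adjusted p = 0.720). Without Control 4 it turned to -0.31 (limma, adjusted p = 0.0680; range over 16 alternatives 0.0680 to 0.837), so the direction rests on that library. Its values did not stand in whole steps within 0.05, so no fragment number is given for them.

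The same OGD libraries held high levels of other genes of the hypoxic response. Of 14 HIF targets 13 were tested and these rose. Of these, 3 (Ankrd37, Ak4 and Ndrg1) were below 1 FPKM in all Control libraries and met the filter only through OGD, so that they could be tested only if they were high there, and Adm met it in 2 Control libraries. Among the other 9, which had at least 1 FPKM in all Control libraries, 9 rose, with a median log2 change of 1.81 (2.30 over the 13). Vegfa, the growth factor of blood vessels, was at 7.36 ± 0.949 FPKM in Control and 266.4 ± 59.6 in OGD. Ldha, which encodes a subunit of lactate dehydrogenase, rose from 68.4 ± 3.55 to 207.5 ± 13.2 FPKM. Ankrd37 and Ak4 changed by 3.88 and 3.87 on the log2 scale. The upper bound of the Hilpda interval, 1.02 on the log2 scale, lay below the fitted changes of those 9 genes. Ndrg1 lay below that bound, at 0.79 on the log2 scale (0.431 ± 0.179 FPKM in Control and 1.46 ± 0.158 in OGD). Car9, the untested target, was at 0 FPKM in all OGD libraries. The list was chosen with earlier results of these data known, so its counts and the comparison with Hilpda are a description.

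G0s2, the other small inhibitor of ATGL, rose. G0s2 was at 3.27, 2.67, 1.36 and 2.36 FPKM in Control 1 to 4 and at 5.97, 4.94, 5.30 and 5.79 FPKM in OGD 1 to 4, with every OGD library above every Control library. G0s2 changed by 0.96 ± 0.16 on the log2 scale (SE; limma, adjusted p = 0.000761).

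Lipe (ENSRNOG00000020546) encodes hormone-sensitive lipase, which cleaves diacylglycerol and cholesterol esters. Lipe was at 1.83, 2.04, 1.46 and 1.90 FPKM in Control 1 to 4 and at 3.23, 3.23, 3.41 and 3.27 FPKM in OGD 1 to 4. The OGD libraries lay in a narrow band above all Control libraries. Lipe rose on the log2 scale by 0.61 ± 0.11 (SE; limma, adjusted p = 0.000805, range over 15 alternatives 0.000261 to 0.00337), and 7.18% of the tested genes had a larger one. Read as whole steps within 0.05, its values stand for 45, 52, 40 and 50 fragments in Control and 74, 65, 96 and 95 in OGD, if 1 step is 1 fragment.

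Mgll (ENSRNOG00000014508) encodes monoacylglycerol lipase, which completes lipolysis and in brain also degrades the endocannabinoid 2-arachidonoylglycerol. Mgll was at 2.06, 1.86, 2.26 and 2.06 FPKM in Control 1 to 4 and at 0.296, 1.68, 1.21 and 1.17 FPKM in OGD 1 to 4. All OGD libraries lay below all Control libraries, OGD 1 far below and OGD 2 just below. Its log2 change was -0.60 ± 0.20 (SE; limma, adjusted p = 0.0277), and it was -0.38 without OGD 1 (adjusted p = 0.0384). The call was lost without Control 1, 3 or 4 (limma, adjusted p = 0.0526, 0.0664 and 0.0563), with quantile normalization (adjusted p = 0.0687) and without a filter (adjusted p = 0.0539). With a pseudocount of 0.1 the change was -1.05 (limma, adjusted p = 0.0501). Over 15 alternatives the adjusted p of Mgll ran from 0.0107 to 0.0687, and 9 passed.

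Of 13 tested genes of further lipases and hydrolases 4 rose, 1 fell and 8 did not pass (median log2 change 0.14). The shares over all tested genes were 22.7% rising and 26.8% falling. The number that rose was 2 without Control 3, Control 4, OGD 1 or OGD 4, and the number that fell was 2 without OGD 2 or OGD 4. Abhd6, which like Mgll hydrolyses monoacylglycerol, rose from 6.37 ± 0.510 to 10.5 ± 0.653 FPKM (limma, adjusted p = 0.000139). Pnpla6, a phospholipid lipase of the same patatin-like family as Pnpla2, rose from 3.68 ± 0.0769 to 6.29 ± 0.907 FPKM (limma, adjusted p = 0.000578). The other rising genes were Nceh1 (0.27), a cholesterol ester hydrolase, and Pnpla8 (0.25), a phospholipase, and the falling gene was Naaa (-0.86), the acid amidase of N-acylethanolamines. Abhd4, a lipase of N-acyl phospholipids and the highest gene of the list, was at 83.5 ± 4.79 and 73.6 ± 5.72 FPKM (limma, adjusted p = 0.0552).

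Fatty acids freed from droplets can be oxidised in mitochondria. Of 20 tested genes of fatty acid oxidation 11 fell, 1 rose and 8 did not pass, with a median log2 change of -0.36. Cpt2, the inner carnitine palmitoyltransferase, fell from 6.04 ± 0.222 to 2.27 ± 0.410 FPKM (limma, adjusted p = 1.78e-05), and Cpt1a, the liver-type outer enzyme, fell by 0.71 on the log2 scale. Etfa, an electron transfer flavoprotein subunit, fell from 22.3 ± 2.80 to 12.9 ± 2.16 FPKM, and Decr1, a reductase for unsaturated fatty acids, from 13.8 ± 2.01 to 7.97 ± 1.27 FPKM. Hadha, the trifunctional protein subunit with the highest level of the list, fell from 87.2 ± 2.94 to 65.5 ± 3.79 FPKM. The rising gene was Cpt1c (0.42), a relative of Cpt1a expressed in brain, whose part in mitochondrial oxidation was not tested. Cpt1c was past the test in 4 libraries against 4 but not without Control 1, 2 or 3 or OGD 1 or 2.

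**Figure D4:**
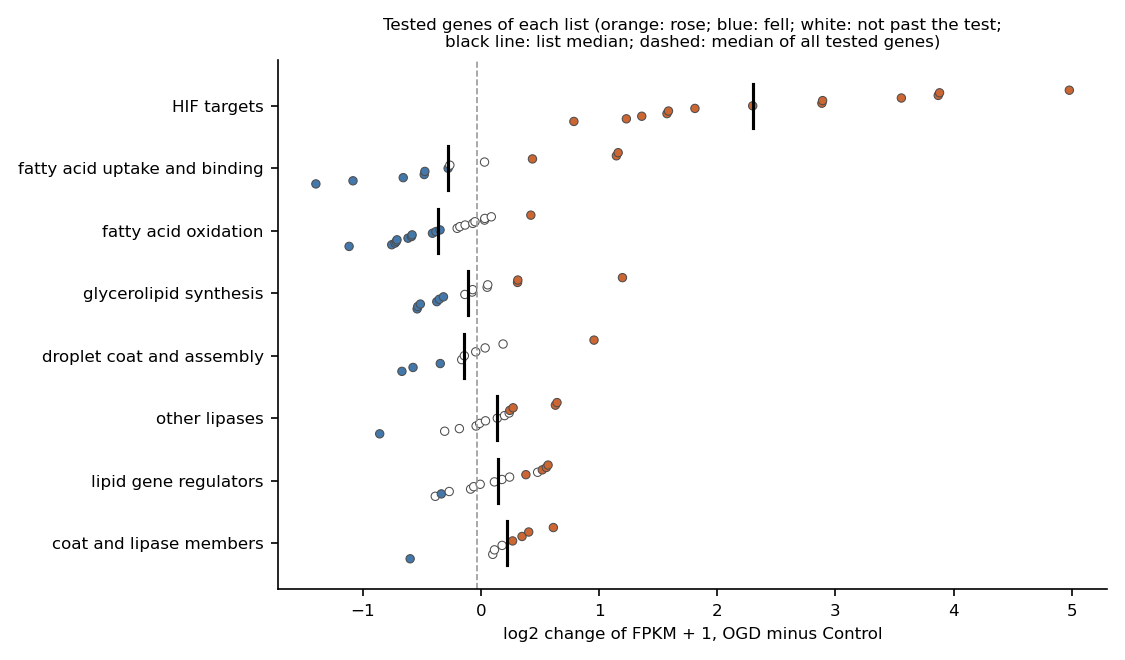
Log2 change of FPKM + 1 (horizontal axis, OGD minus Control) of each tested gene by list; orange points rose, blue points fell and white points did not pass, black lines are list medians and the dashed line is the median of all tested genes, -0.04. HIF targets lie furthest right with a median of 2.30, fatty acid oxidation has its median at -0.36, and the coat and lipase genes lie between -0.60 and 0.61 with a median of 0.22.

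Genes of fatty acid uptake and binding went in both directions, as did all tested genes (22.7% rose and 26.8% fell). Of 11 tested, 3 rose, 6 fell and 2 did not pass, with a median log2 change of -0.28. Vldlr, a receptor that takes up lipoproteins, rose from 15.1 ± 1.29 to 34.5 ± 2.18 FPKM (limma, adjusted p = 1.59e-06). Slc27a3 (0.44), of the fatty acid transport protein family, was also among the rising genes. Fabp7, the fatty acid binding protein of precursor and glial cells, fell from 823.5 ± 76.0 to 313.0 ± 34.6 FPKM (limma, adjusted p = 1.81e-06). Dbi, an acyl-CoA binding protein, was at 761.0 ± 96.3 and 633.6 ± 69.0 FPKM and did not pass (limma, adjusted p = 0.0634). Of 14 tested regulators of lipid genes 4 rose, 1 fell and 9 did not pass (median 0.15). Ppargc1a, a coactivator of mitochondrial genes, rose from 2.67 ± 0.463 to 4.27 ± 0.754 FPKM. Arnt, the partner of the HIF alpha subunits, and Mlx, the partner of Mondo glucose sensors, rose by 0.57 and 0.55 on the log2 scale. Hif1a (0.38) completed the rising genes, Epas1 was the falling one (-0.33), and Srebf2, the sterol regulator, was at 56.0 ± 1.95 and 52.7 ± 2.65 FPKM. The number of falling regulators was 2 without Control 1, OGD 2 or OGD 3 and 0 without Control 3.

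The genes whose log2(FPKM + 1) ran most like that of Lipe over the 8 libraries, among 10354 tested genes with a symbol, were Rrn3, Naa50 and Zfp711 (Pearson r = 0.998, 0.996 and 0.992). Those most like Mgll were Tbc1d22a, Zdhhc14 and Shisa8 (r = 0.956, 0.953 and 0.947). These coefficients describe likeness over libraries that fall into 2 groups of 4, so they include the difference between the groups. Tbc1d22a, Zdhhc14 and Shisa8, like Mgll, were lowest in OGD 1, at 3.23, 3.89 and 0.445 FPKM, which their choice by likeness to Mgll favours. In Control Shisa8 was at 2.11 ± 0.280 FPKM.

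Each library held 14095 to 14444 genes above 0, and relative depths read from low values ran from 0.816 (OGD 2) to 1.18 (OGD 4) with Control 1 set to 1. Total fragment numbers are unknown. Of 9 tested precursor markers 6 fell and 0 rose, with Olig1, a transcription factor of the lineage, at 794.5 ± 41.4 FPKM in Control and 356.5 ± 28.0 in OGD. Summed astrocyte markers were 118.1 to 121.4 FPKM in Control and 117.0 to 122.5 in OGD. Most of this sum was Slc1a3 (63.4 ± 2.67 and 60.1 ± 2.49 FPKM) and Sox9 (37.1 ± 2.94 and 44.1 ± 5.96 FPKM). Aqp4, Aldh1l1 and Gjb6 were below 1 FPKM in all libraries, so the sum says little about astrocyte content. Of the 6 tested 1 fell (Gfap, from 2.16 ± 0.618 to 0.480 ± 0.258 FPKM, which met the filter only through Control). Summed neuronal markers were 278.9 to 343.3 and 269.7 to 347.6 FPKM, led by Map2 (224.9 ± 28.7 and 196.7 ± 37.1 FPKM), with 2 of 8 rising (Tubb3 and Syt1) and 3 falling (Snap25, Syn1 and Nefl). Summed vascular and stromal markers were at most 0.482 FPKM, led by Kdr (0.110 and 0.0992 FPKM), with 0 of 8 tested. Lpl, the highest of 8 adipocyte markers and the only tested one, was at 4.42 ± 0.911 and 4.45 ± 1.98 FPKM.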

How the data were processed

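The FPKM values of 4 Control and 4 OGD libraries were used as the authors deposited them, 1 column per library. RNA was taken to libraries with Agilent's strand-specific SureSelect chemistry, per the labels' protocols. The submitters' processing notes name Trimmomatic, FastQC and build rn6 (Rnor_6.0). Which aligner, FPKM program and annotation were used, and whether strand was used, is not given in the sources used here, so values of overlapping genes are uncertain. FPKM shifts with the library total and keeps no counts.

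The 11149 of 32662 genes that reached 1 FPKM in 4 or more libraries were tested on log2(FPKM + 1) in R 4.3.3 by limma 3.58.1, with group as the single term and a trended empirical Bayes step. The threshold was 0.05 on p-values adjusted by Benjamini-Hochberg. The pseudocount understates changes of low genes. Ratios of 2 genes were compared by exact two-sided permutation over samples. Samples were grouped by their labels. No 2 samples held identical values. Members and lists were chosen with earlier results of these data known. Of 183 entries in 13 further lists 179 matched a row, 2 by an older symbol (RefSeq, GRCr8). Plin1, Cidec, Fabp4 and Lpl stand in the adipocyte list and in another list.

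Named genes were all members, the 3 largest changes with groups apart and the gene with the highest mean over the 8 libraries in each lipid, regulator and HIF list and each marker list, and 3 genes most like each of the 2 most changed members. Other genes named were singled out after their values were seen. A gene that the rule names is not reported here. Relative depth came from genes with no value over 0.5 FPKM, which stand in ratios of whole numbers (68.6% to 72.3% within 0.01 on the log2 scale). For each member, steps of up to 60 per smallest value were searched, and 3 of 9 members with values gave whole steps. On simulated data of the same 11149 genes, with 50 genes per fold made to differ between OGD and Control, the test found 22% of the 1.25-fold, 82% of the 1.5-fold, 96% of the 2-fold and 100% of the 4-fold changes, and 8 of its 158 calls were false. The changed genes were drawn from those with a mean log2(FPKM + 1) above 3 in Control. Lipe, Mgll, Plin2, Abhd5, Lpin1 and Hilpda did not reach that level. The data gave 5519 calls, far more than the simulation, so these shares do not describe the test of those members. The alternatives changed the scaling (quantile, median centring, or totals outside mitochondrial genes), the filter (none, or 5 FPKM), the pseudocount (0.1) or the model (no trend, or a replicate block), or left out each library in turn. Tables and plots were made in Python 3.11.15 with pandas 2.3.3 and matplotlib 3.10.9.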

Additional observations from a re-analysis of the deposited data

Results flagged for a closer look

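Among the genes named, 1 library stood far from the other 3 of its group in 8 of 94 groups of 4, where chance gives about 4.7. For the coat and lipase genes, Hilpda was at 1.33 FPKM in Control 4 against 7.66 to 8.54 in the other Control libraries. Plin2 was at 4.12 FPKM in Control 4 against 2.53 to 2.74, and at 4.09 FPKM in OGD 4 against 3.03 to 3.11. Lpl was at 5.77 FPKM in Control 4 against 3.84 to 4.17, and Cpt2 at 2.88 FPKM in OGD 4 against 2.04 to 2.08. Of the genes most like Lipe and Mgll, Naa50 was at 8.92 FPKM in OGD 1 (others 9.16 to 9.19), Zdhhc14 at 5.09 FPKM in Control 2 (others 5.55 to 5.64) and Shisa8 at 2.53 FPKM in Control 3 (others 1.94 to 2.00).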

How the results depend on the processing

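The number of coat and lipase genes that rose, 4 of 8, was 2 with median centring, 1 without a filter, 1 with a filter of 5 FPKM (which left 3 of the genes) and 1 to 3 with single libraries left out. The number that fell, 1, was 0 with quantile normalization, without a filter, with a filter of 5 FPKM and with a pseudocount of 0.1, and 0 to 1 with single libraries left out. With the replicate number as a block 2 genes rose and 1 fell. Over all tested genes, same-numbered libraries did not deviate together (r = -0.222 to 0.163), and 2 of 8 libraries correlated best with their own number. The numbers were therefore not taken as pairs. Plin2, Lpl and the summed microglial markers were still highest in replicate 4 of both groups, so the correlations do not settle this for single genes. The counts over all genes stayed within 1.5 times in every alternative (2123 to 2728 higher, 2337 to 3245 lower). A single gene ratio could not pass 0.05 in this design after adjustment for 2 ratios, so its alternatives say nothing about stability. With 1 library left out the Plin2 to Plin3 difference ran from 0.21 to 0.44 and the Dgat2 to Dgat1 difference from -0.31 to -0.076. The log2 change turned its direction for Hilpda without Control 4 (-0.31, with 0.11 to 0.37 without other libraries), for Slc1a3 with quantile normalization (0.0020) and for Lpl without Control 4 (0.072), OGD 1 (0.024) or OGD 2 (0.11, with a lowest value of -0.26 without OGD 4). The cause was not tested. If 1 step is 1 fragment, depth limits Plin3, Plin2 and Lipe to the fragment numbers given. No fragment number is given for the other genes.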
